A study of Mus musculus with 8 samples.

Results

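The ligands of the tumour necrosis factor (TNF) superfamily are signals that immune cells place on their surface or release. This report describes the mRNA of 8 of them, Tnf, Lta, Ltb, Tnfsf8, Tnfsf10, Tnfsf11, Tnfsf14 and Fasl, in murine group 2 innate lymphoid cells (ILC2s) of the lung. They were taken as the rows with these symbols, 8 of the 23183 genes in the count files and 8 of the 12239 genes with enough reads to be tested. Of 8 samples of ILC2s from C57BL/6 mice (wild-type C57BL/6 J in the study's methods), 4 received the Piezo1 channel agonist Yoda1 at 5 µM and 4 its vehicle, DMSO at 0.1%, in each case for 3 h. Both groups shared the same source and culture, in that the cells were enriched with a pan-ILC kit and CD45 beads from the lungs of mice given IL-33 (both sexes, 6 to 10 weeks old) and were then kept with IL-2, IL-7 and IL-33. Both groups were therefore exposed to an activating alarmin, and neither is a resting control. The sources used here do not say if samples were separate mice or separate cultures, so the p-values measure only the spread between these samples, which may be technical.

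TNF superfamily ligands are type II membrane proteins or secreted proteins that assemble as trimers and cluster their receptors. Receptors without a death domain recruit TRAF adaptors and feed into NF-κB, whereas receptors with a death domain, such as Fas, can start caspase-dependent killing. Lymphocytes, innate lymphoid cells among them, use these ligands to shape lymphoid tissue, to costimulate other lymphocytes and to limit cell survival. In ILC2s the receptors are also of interest, because some of them, such as the receptors of the Tnfsf15 and Tnfsf18 products, act beside the IL-33 receptor as costimulatory inputs.

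The 8 ligands did not move together with Yoda1. Lta, which encodes lymphotoxin alpha, fell by 42.9%, whereas Tnf, its neighbour on chromosome 17, was 1.12-fold higher. Tnfsf11, which encodes RANKL, was 1.29-fold higher, and Fasl, which encodes Fas ligand, was 1.49-fold higher from the lowest level of the 8. Ltb, Tnfsf8, Tnfsf10 and Tnfsf14 did not pass the test. So 4 of 8 ligands passed in edgeR (3 higher and 1 lower), where 10.9% of all tested genes passed (6.04% higher and 4.84% lower). The ligands and the gene lists below were chosen with earlier results of these data known. The shares called in them are therefore a description and not a test of the family. The median log2 fold change was 0.11 over the 8 ligands and -0.0053 over all tested genes. All values below are normalized CPM (reads of a gene divided by the TMM-scaled total of its library), and a gene was called changed at an adjusted p below 0.05 over all tested genes.

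**Figure D1:**
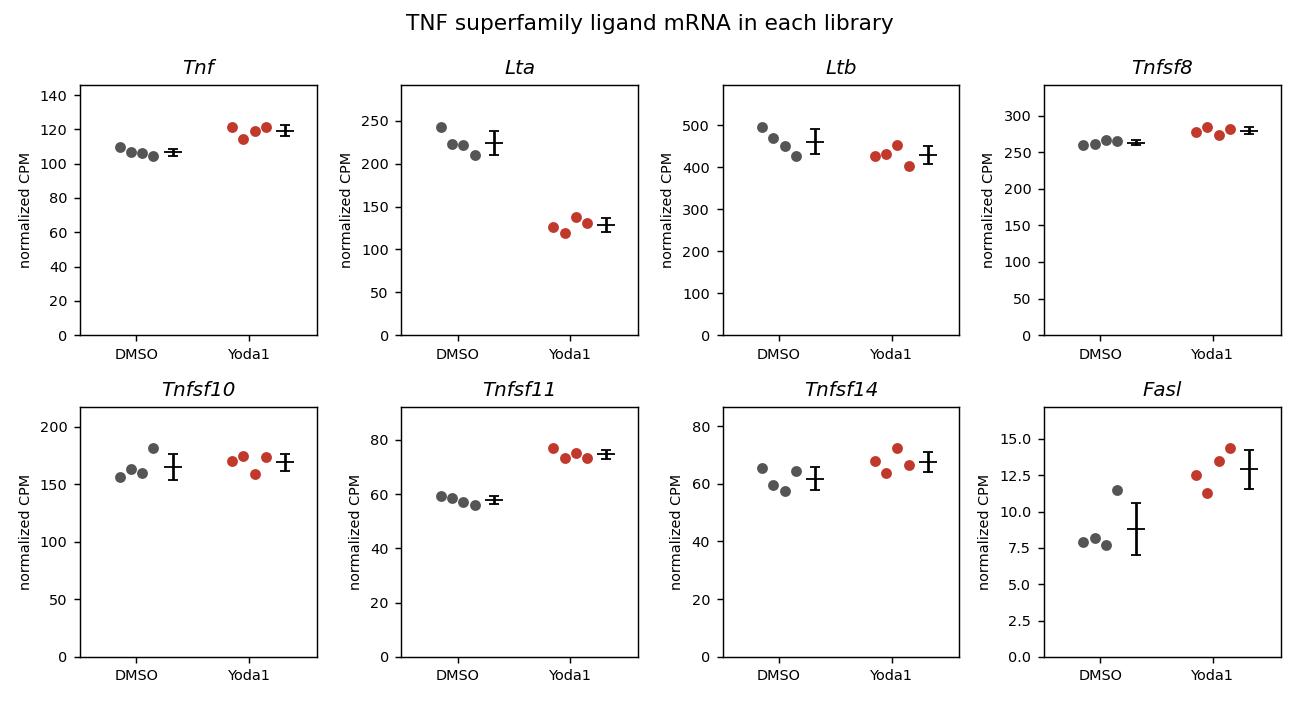
Normalized CPM (y axes, linear, from 0) of the 8 ligands in each DMSO sample (grey points) and Yoda1 sample (red points), with the mean and SD of each group of 4 drawn beside them. Lta stands apart, with Yoda1 samples between 119 and 138 and DMSO samples between 210 and 243, and the groups of Tnf, Tnfsf8 and Tnfsf11 are also separate, with higher values in the Yoda1 samples.

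Lta encodes a secreted cytokine that binds the TNF receptors as a homotrimer and the lymphotoxin beta receptor when joined to the Ltb product. Lta stood at 243, 223, 221 and 210 CPM in the DMSO samples and at 126, 119, 138 and 131 CPM in the Yoda1 samples. Every Yoda1 sample lay far below every DMSO sample. The mean went from 224 ± 13.7 to 128 ± 7.86 CPM (SD, n = 4 each), which made Lta 1.75-fold lower with Yoda1 (log2 fold change -0.81, SE 0.046, edgeR adjusted p = 6.90e-13). Lta had the 8th smallest p of the 12239 genes tested, and only 52 genes, Lta included, had a log2 fold change as low or lower. These values rested on between 1558 and 4067 reads per sample. Fewer transcripts per cell and fewer cells expressing a gene cannot be told apart in bulk RNA, here or for any gene below.

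Tnf encodes a proinflammatory cytokine that is made as a membrane protein and shed by ADAM17. Tnf stood at 109.6, 106.6, 105.9 and 104.7 CPM in the DMSO samples and at 121.6, 114.6, 119.3 and 121.1 CPM in the Yoda1 samples. The groups did not overlap, but the distance between them was small. The mean went from 107 ± 2.07 to 119 ± 3.20 CPM (log2 fold change 0.16, SE 0.039, edgeR adjusted p = 0.00691), on 1417 to 2355 reads per sample.

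Ltb encodes the membrane subunit that anchors lymphotoxin alpha at the cell surface. Ltb stood at 497, 471, 451 and 427 CPM in the DMSO samples and at 428, 431, 454 and 402 CPM in the Yoda1 samples. The groups overlapped, since the highest Yoda1 sample exceeded the lowest 2 DMSO samples. The means were 461 ± 29.8 and 429 ± 21.3 CPM, a log2 fold change of -0.11 (SE 0.043), which did not pass (edgeR adjusted p = 0.113). The result depended on the scaling and on which samples were kept. It passed at -0.13 on the log2 scale (edgeR adjusted p = 0.0478) when libraries were scaled by their totals alone, at -0.14 (edgeR adjusted p = 0.0369) with upper-quartile factors, and also without DMSO sample 4 (edgeR adjusted p = 0.0377) or without Yoda1 sample 3 (edgeR adjusted p = 0.0482). With total or upper-quartile scaling the ligands called were thus 5, 3 higher and 2 lower.

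Because Tnf, Lta and Ltb lie side by side, their reads can be compared within a library, where the scaling cancels. The ratio of Lta reads to Tnf reads was 2.22, 2.09, 2.09 and 2.01 in the DMSO samples and 1.03, 1.04, 1.15 and 1.08 in the Yoda1 samples. The mean ratio was 2.10 ± 0.087 in DMSO and 1.08 ± 0.055 in Yoda1 samples (SD, n = 4 each), so the Yoda1 samples held nearly equal numbers of Lta and Tnf reads. The ratio of Lta to Ltb reads went from 0.486 ± 0.0088 to 0.299 ± 0.020, and that of Ltb to Tnf reads from 4.32 ± 0.199 to 3.60 ± 0.227. The groups were separate in all 3 ratios (by an exact, two-sided permutation test each p was 0.0286, the least that 4 against 4 can give, and Benjamini-Hochberg adjustment over the 3 left it at 0.0286). Lta was separate and lower and Tnf separate and higher, so their ratio had to separate and its p was fixed in advance. The ratio of Lta to Ltb likewise carries the fall of Lta. That of Ltb to Tnf carries the rise of Tnf (log2 fold change 0.16) together with the lower mean of Ltb (-0.11). The p-values were adjusted over the 3 ratios only, and Ltb by itself did not pass the test across genes. The ratios are therefore given as a description.

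The cluster spans 10913 bp of chromosome 17 in GRCm38. Ltb lies on the plus strand at chr17:35194439-35196320 with 3 exons, and Tnf lies on the minus strand at chr17:35199381-35202007 with 4 exons. Lta, also on the minus strand, lies at chr17:35203165-35205351 with 4 exons, 1157 bp upstream of the start of Tnf. The end of Ltb and the end of Tnf face each other across 3060 bp. No exon of the 3 genes overlaps an exon of another, so their counts do not share positions. Of 8 protein-coding genes listed from the same region, Ly6g6f had 0 reads in all 8 samples and 7 were tested. By edgeR 0 of the 7 passed, where 10.9% of all tested genes passed, so 0 of 7 is near that share. Aif1 and Lst1 were low, at 1.06 and 8.51 CPM in the DMSO samples. In edgeR 1 of the 7 had an unadjusted p below 0.05, and 0 passed by DESeq2 or limma-voom. The exception before adjustment was Atp6v1g2, a vacuolar ATPase subunit gene, at 4.82 ± 0.575 CPM in DMSO and 3.92 ± 0.479 CPM in Yoda1 samples (log2 fold change -0.31, SE 0.144, edgeR adjusted p = 0.173). Nfkbil1, the next listed gene beyond Lta, had a log2 fold change of -0.023 (SE 0.064). Lst1, the next listed gene beyond Ltb, had a log2 fold change of -0.056 (SE 0.097).

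**Figure D2:**
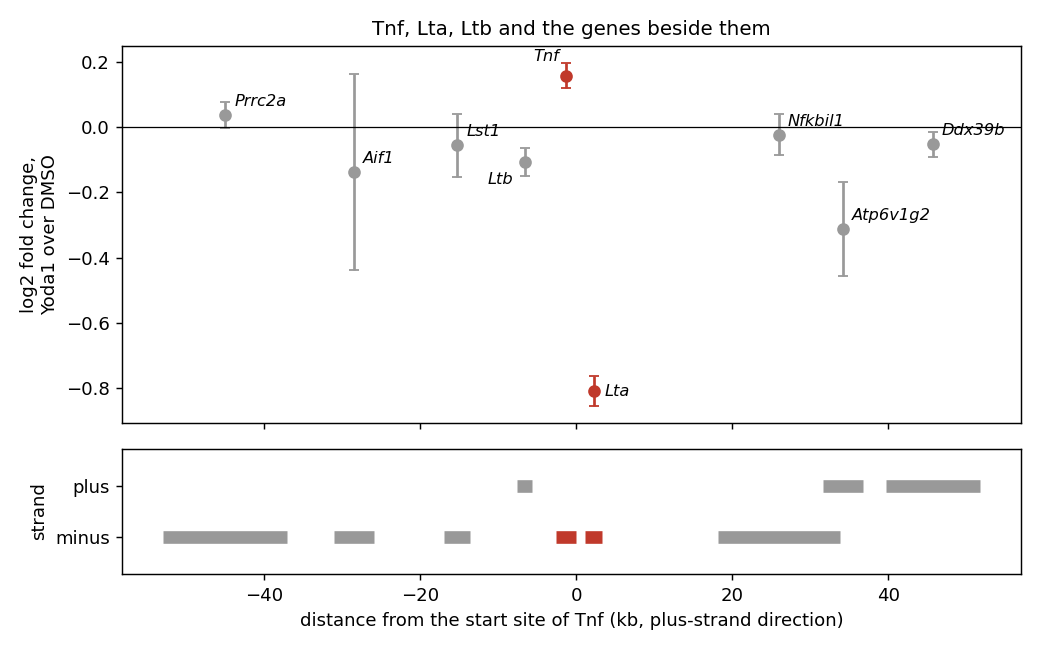
Log2 fold change of Yoda1 over DMSO (upper panel, points with bars for the SE) and gene extents by strand (lower panel) for genes around Tnf on chromosome 17, by distance from the Tnf start site (x axis, kb), with red for genes past the edgeR threshold and grey for the rest. Within this window Lta (-0.81) and Tnf (0.16) are the only genes drawn that passed the edgeR test, and the listed neighbours drawn on both sides lie between -0.31 and 0.037.

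The regions before Tnf and Lta are shown because these neighbours moved in opposite directions. Each is the 250 bases just upstream of the annotated gene start, from RefSeq (GRCm38.p6), written 5′ to 3′ on the gene's own strand. Capitals mark GGAAA, the core letters bound by NFAT factors, or its reverse complement TTTCC. NFAT is the calcineurin-activated family that responds to calcium.
Tnf, minus strand, chr17:35202008-35202257: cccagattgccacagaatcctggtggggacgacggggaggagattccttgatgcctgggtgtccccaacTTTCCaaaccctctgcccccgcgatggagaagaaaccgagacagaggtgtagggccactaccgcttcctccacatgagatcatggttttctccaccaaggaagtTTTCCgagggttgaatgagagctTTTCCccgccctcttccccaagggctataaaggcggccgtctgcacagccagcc
Lta, minus strand, chr17:35205352-35205601: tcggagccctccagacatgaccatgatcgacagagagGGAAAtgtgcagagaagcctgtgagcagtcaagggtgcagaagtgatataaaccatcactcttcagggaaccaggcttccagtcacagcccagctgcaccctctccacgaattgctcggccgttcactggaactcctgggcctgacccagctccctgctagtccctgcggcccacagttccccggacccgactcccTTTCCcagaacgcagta
The Tnf stretch held 3 such cores and the Lta stretch held 2. In the full RefSeq promoter windows, which run from 250 bases before to 50 bases after a start, Tnf and Lta held 3 each. Of all 32851 mouse promoter windows of that length, 61.3% held at least 1 core and 9.42% held at least 3. A match describes the letters only, and binding of NFAT was not measured here. The paper reports that the protein expression of NFAT in ILC2s was not altered by Yoda1. That is a level of protein, and activation of NFAT is a different measure that was not made in these samples.

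The 3′ untranslated regions of the neighbours also differed in AU-rich elements, the pentamers ATTTA that are known from cytokine mRNAs with short lives. Tnf held 8 ATTTA in 764 bases and Lta held 3 in 572 bases, while Ltb held 0 in 156 bases. The longer form TATTTAT occurred 8 times in Tnf and 3 times in Lta. Among the 11157 tested genes with an annotated 3′ untranslated region, 27.9% held TATTTAT at least once and 3.40% held it at least 3 times, and 0.108% held it as often as Tnf. The densest part of the Tnf region, its bases 437 to 466, is shown with ATTTA in capitals because 5 of the 8 pentamers lie there.
Tnf 3′ untranslated region, GRCm38: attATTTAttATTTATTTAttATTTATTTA
The other 5 ligands held between 1 and 10 ATTTA, some of them in much longer regions. Tnfsf8 held 10 in 2799 bases, Tnfsf10 held 8 in 3998 and Tnfsf11 held 6 in 1131. Tnfsf14 held 1 in 1019 bases and Fasl held 1 in 887. The pentamer is common, since 66.5% of the same genes held ATTTA at least once. As many as in Lta were held by 34.6% and as many as in Tnf by 9.35%. A relation between these counts and the changes was not tested, and mRNA half-life was not measured in these samples.

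Tnfsf11 encodes RANKL, the osteoclast-inducing ligand that also acts on dendritic cells through RANK. Tnfsf11 stood at 59.3, 58.4, 57.0 and 56.0 CPM in the DMSO samples and at 76.9, 73.2, 75.0 and 73.4 CPM in the Yoda1 samples. The groups were well apart, with little spread inside either. The mean went from 57.7 ± 1.47 to 74.6 ± 1.69 CPM (log2 fold change 0.37, SE 0.044, edgeR adjusted p = 5.13e-07), on 758 to 1428 reads per sample. After Lta it had the smallest p of the 8 ligands. The gene lies on the minus strand at chr14:78277445-78308043 with 5 exons. The 250 bases before its start are shown, with the same capitals, as those of the ligand with the smallest p among the increases, and they held 1 core.
Tnfsf11, minus strand, chr14:78308044-78308293: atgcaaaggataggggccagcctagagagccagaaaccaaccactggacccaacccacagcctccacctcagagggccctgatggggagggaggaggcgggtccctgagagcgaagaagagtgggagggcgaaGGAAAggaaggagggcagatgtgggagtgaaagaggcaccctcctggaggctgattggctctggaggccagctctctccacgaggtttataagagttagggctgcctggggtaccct

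Fasl encodes Fas ligand, which triggers apoptosis in cells that carry Fas. Fasl stood at 7.89, 8.16, 7.67 and 11.5 CPM in the DMSO samples and at 12.5, 11.3, 13.5 and 14.4 CPM in the Yoda1 samples. DMSO sample 4 lay far above the other 3 and just above the lowest Yoda1 sample, so the groups overlapped. The mean went from 8.79 ± 1.79 to 12.9 ± 1.33 CPM (log2 fold change 0.57, SE 0.112, edgeR adjusted p = 0.00105), whereas the exact permutation test on the CPM gave p = 0.0571. Without DMSO sample 4 the log2 fold change was 0.71 (edgeR adjusted p = 4.63e-05). The counts were the lowest of the 8 ligands, between 120 and 279 reads per sample. The gene lies on the minus strand at chr1:161780689-161788495 with 4 exons. Its upstream stretch is shown as that of the ligand with the largest fold increase of the 8, and it held 2 cores.
Fasl, minus strand, chr1:161788496-161788745: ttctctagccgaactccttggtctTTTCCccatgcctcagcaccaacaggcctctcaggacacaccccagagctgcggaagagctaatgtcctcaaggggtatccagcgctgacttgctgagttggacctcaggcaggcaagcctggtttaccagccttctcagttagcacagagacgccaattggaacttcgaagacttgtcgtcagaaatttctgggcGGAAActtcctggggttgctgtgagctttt

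Fas ligand is also a product of NK and CD8 T cells, so their markers are given beside it. Of 11 such markers, all of which were tested, 3 were called (27.3%), where 10.9% of all tested genes were called (6.04% higher). All 3 were higher with Yoda1, namely Tbx21 and Eomes, which encode T-box factors of cytotoxic lymphocytes, and Prf1, which encodes perforin. The other 8 were not called, and of the 11 markers 7 had a log2 fold change above 0 and 4 below it (Ncr1 -0.23, Klrb1c -0.21, Cd8b1 -0.13 and Klrk1 -0.052). The summed level of the 11 markers ranged from 840 to 929 CPM in the DMSO samples and from 902 to 972 CPM in the Yoda1 samples. The part of these markers in the Fasl result was not tested. The 14 ILC2 markers were all tested and 7 were called (50%), 6 higher and 1 lower (Icos, -0.18). Their summed level was 17435 to 17951 CPM in DMSO and 19648 to 20000 CPM in Yoda1 samples. Much of that difference lay in Il13, at 5431 ± 187 CPM in DMSO and 6667 ± 114 CPM in Yoda1 samples, while Gata3 (565 ± 25.7 and 565 ± 25.4 CPM) and Id2 (log2 fold change -0.023) did not pass. Of 62 markers of other cell types 32 were tested and 5 were called (15.6%, against 10.9% of all tested genes), all higher (the 3 above, Cd28 and Xcr1). The summed level over the 62 ranged from 1256 to 1351 CPM in DMSO and from 1332 to 1409 CPM in Yoda1 samples. The T cell markers, at 140 to 142 against 147 to 154 CPM, and those of macrophages and dendritic cells, at 26.6 to 28.5 against 32.7 to 38.2 CPM, were separate between the groups. In the macrophage and dendritic cell list the called gene was Xcr1, at 16.5 ± 0.568 and 25.5 ± 1.80 CPM, while Cd68 (2.96 and 2.64 CPM) and Itgax (6.89 and 6.94 CPM) did not pass and Adgre1 (0.646 and 0.450 CPM) was too low to test. Of the 8 T cell markers tested, 6 had a log2 fold change above 0 and 2 below it. Cd28 (0.29) was called, and the other 7 did not pass. Above 0 these were Cd5 (0.42), Cd4 (0.25), Themis (0.17), Cd3g (0.15) and Cd3d (0.11), and below it Cd3e (-0.16) and Lat (-0.040). C1qa, C1qb and Marco of macrophages, Pax5 of B cells and Sftpc and Scgb1a1 of lung epithelium were at 0 in all samples. Other markers of these lists were detected. In the B cell list Cd79b (70 to 128 reads per sample) and Cr2 (27 to 57) were tested. In the lung epithelial and stromal list Epcam (16 to 33 reads), Krt18 (15 to 32) and Pecam1 (220 CPM in DMSO and 219 CPM in Yoda1 samples) were tested. None of these was called.

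Tnfsf10 encodes TRAIL, the other death ligand of the group. Tnfsf10 stood at 156, 163, 159 and 181 CPM in the DMSO samples and at 170, 174, 159 and 174 CPM in the Yoda1 samples. The highest sample was a DMSO sample, and the groups overlapped over nearly all their range. The means were 165 ± 11.1 and 169 ± 7.27 CPM (log2 fold change 0.038, SE 0.043, edgeR adjusted p = 0.638). The gene lies on the plus strand at chr3:27317028-27342427 with 5 exons.

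Tnfsf8 encodes CD30 ligand and Tnfsf14 encodes LIGHT, both of which costimulate lymphocytes. Tnfsf8 stood at 259.7, 261, 266 and 265 CPM in the DMSO samples and at 277, 285, 274 and 281 CPM in the Yoda1 samples. The groups were separate, but by a small margin. The means were 263 ± 3.18 and 279 ± 4.79 CPM (log2 fold change 0.087, SE 0.034), and this did not pass over all genes (edgeR adjusted p = 0.0984). Counting by overlap, the groups were separate for 4 of the 8 ligands (Tnf, Tnfsf8 and Tnfsf11 higher, Lta lower), as for 15.5% of all tested genes (8.44% higher and 7.05% lower).

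Tnfsf14 stood at 65.6, 59.4, 57.5 and 64.5 CPM in the DMSO samples and at 67.9, 63.7, 72.3 and 66.4 CPM in the Yoda1 samples. The lowest Yoda1 sample lay between the DMSO samples. The means were 61.8 ± 3.90 and 67.6 ± 3.60 CPM (log2 fold change 0.13, SE 0.050, edgeR adjusted p = 0.0994). Without DMSO sample 1 it passed at 0.16 on the log2 scale (edgeR adjusted p = 0.0344). Tnfsf8 lies on the minus strand at chr4:63831308-63861347 and Tnfsf14 on the minus strand at chr17:57189492-57194177, far from the Tnf cluster, each with 4 exons. In the RefSeq promoter windows Tnfsf14 held 4 NFAT cores (2.65% of all windows held as many) and the ligands Tnfsf8, Tnfsf10 and Ltb held 1 each. Tnfsf14 was also the only one of the 8 with the AP-1 motif TGANTCA, which 7.81% of all windows held. Each motif was searched on both strands. The cAMP response element TGACGTCA, found in 1.79% of all windows, and the Egr motif GCGTGGGCG, found in 0.612%, had no match in the 8 windows. The NF-κB motif (a run of G and a pair of C with any bases between) matched in 6 of the 8, all except Tnfsf8 and Tnfsf10, and in 50.8% of all windows, and in Ltb 1 match overlapped the NFAT core.

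**Figure D3:**
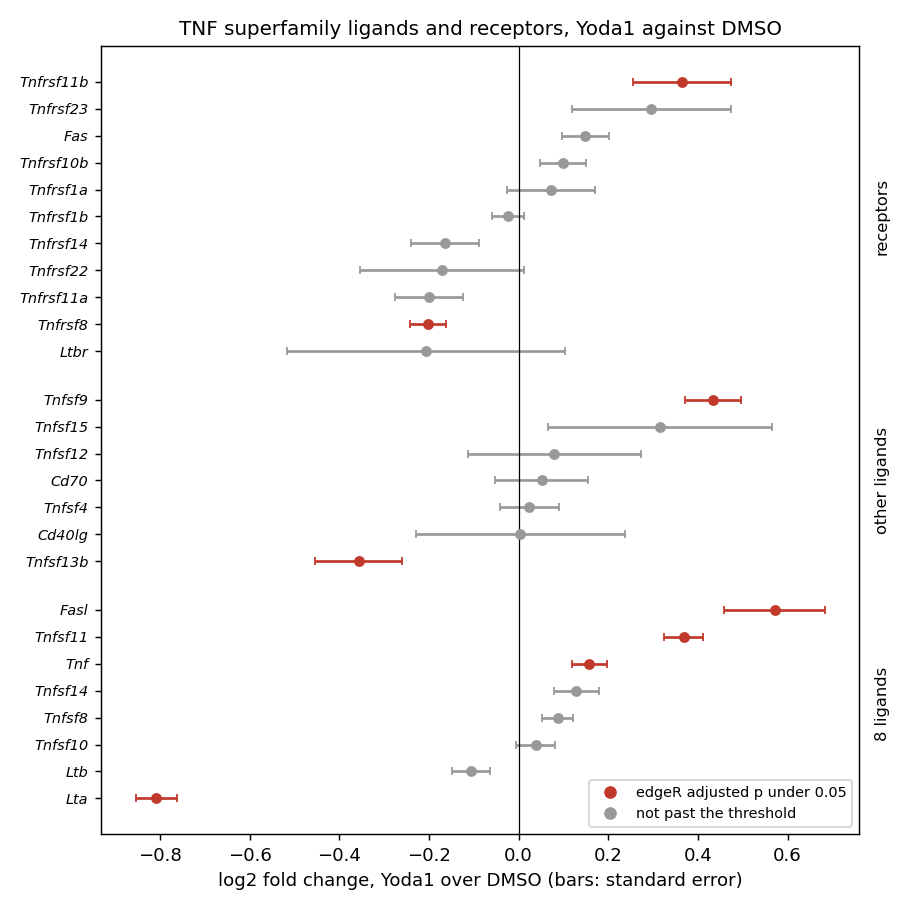
Log2 fold change of Yoda1 against DMSO (x axis, bars showing the SE) for the 8 ligands, the other ligands tested and the receptors, with red points for genes that passed the edgeR test and grey points for the rest. Lta (-0.81) lies far to the left of all the others, while Fasl (0.57), Tnfsf9 (0.43) and Tnfsf11 (0.37) are the called genes farthest to the right.

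The levels of the 8 ligands can be set in order after dividing by exon length. In CPM per kb of exon, Ltb was highest in the DMSO samples at 304 ± 19.6, followed by Lta at 162 ± 9.92, Tnfsf8 at 69.1 ± 0.834 and Tnf at 65.1 ± 1.26 (SD, n = 4). Tnfsf14 at 33.4 ± 2.11, Tnfsf10 at 31.3 ± 2.12 and Tnfsf11 at 25.8 ± 0.657 formed a middle group, and Fasl was lowest at 4.54 ± 0.922. Among neighbours in this order only Tnfsf14 and Tnfsf10 overlapped between samples. In the Yoda1 samples Ltb and Lta still led, at 283 ± 14.1 and 92.7 ± 5.68 CPM per kb. The next places were close, as Tnfsf8 at 73.4 ± 1.26 and Tnf at 72.7 ± 1.95 overlapped. Tnfsf11 at 33.4 ± 0.756 stood above Tnfsf10 at 32.1 ± 1.38 in mean level, and these 2 overlapped. Tnfsf14 was at 36.6 ± 1.95 and Fasl again lowest at 6.66 ± 0.686 CPM per kb. The exon length joins the exons of all transcripts of a gene, and with the longest transcript alone the mean level of Ltb over the 8 samples was 314 CPM per kb.

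**Figure D4:**
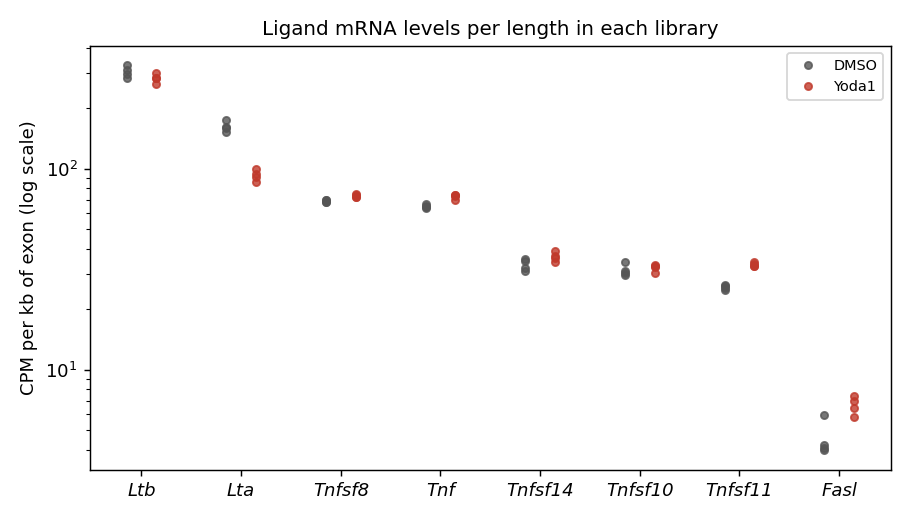
CPM per kb of exon (log axis) of the 8 ligands in DMSO and Yoda1 samples, with points for samples and genes ordered by their DMSO level. Ltb leads in both groups and Fasl is lowest, and the gap between Lta and Tnfsf8 is smaller in the Yoda1 samples, where Lta was at 92.7 and Tnfsf8 at 73.4.

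The superfamily holds further ligands, and 10 of these were listed. Tnfsf13, Tnfsf18 and Eda had too few reads to be tested (0 to 5 per sample). Of the 7 tested, 2 passed, 1 higher and 1 lower (28.6%, against 10.9% of all tested genes). Tnfsf9, which encodes the ligand of 4-1BB, a costimulatory receptor, rose from 21.1 ± 0.657 to 28.6 ± 0.773 CPM (log2 fold change 0.43, SE 0.063, edgeR adjusted p = 1.46e-05). Tnfsf13b, which encodes the B cell survival factor BAFF, fell from 11.7 ± 1.18 to 9.17 ± 0.720 CPM (log2 fold change -0.36, SE 0.097, edgeR adjusted p = 0.0152). The call of Tnfsf13b was lost without DMSO sample 2 (edgeR adjusted p = 0.0544) or without Yoda1 sample 4 (edgeR adjusted p = 0.0622). The other 5 did not pass, with log2 fold changes of 0.024 for Tnfsf4 (OX40 ligand), 0.0040 for Cd40lg, 0.051 for Cd70, 0.080 for Tnfsf12 (TWEAK) and 0.32 for Tnfsf15 (TL1A). Without 1 sample, the log2 fold change was below 0 in 3 of 8 fits for Cd40lg and in 1 of 8 each for Tnfsf4, Cd70 and Tnfsf12.

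The mRNA of receptors of the 8 ligands was detected in the same samples, and 2 of 11 tested passed (18.2%, against 10.9% of all tested genes). Bulk counts do not show if ligand and receptor mRNA lay in the same cells, and receptor protein was not measured here. Tnfrsf8, which encodes CD30, the receptor of the Tnfsf8 product, fell from 169 ± 9.43 to 147 ± 1.83 CPM (log2 fold change -0.20, SE 0.040, edgeR adjusted p = 0.000861). Tnfrsf11b, which encodes osteoprotegerin, a decoy for RANKL, was at 6.94 ± 0.978 CPM in DMSO and 8.93 ± 0.324 CPM in Yoda1 samples (log2 fold change 0.36, SE 0.110, edgeR adjusted p = 0.0292). The latter call was lost in DESeq2 (adjusted p = 0.0575) and in 6 of the 8 fits without 1 sample, all except those without DMSO sample 1 or Yoda1 sample 4. Tnfrsf11a, which encodes RANK, was at 52.9 ± 5.52 and 46.1 ± 4.30 CPM (log2 fold change -0.20, SE 0.076, edgeR adjusted p = 0.109), and it passed in 5 of 16 alternatives. These were the fits without DMSO sample 1 (edgeR adjusted p = 0.00298), without Yoda1 sample 2 (0.00890), with no filter on low counts (0.00500), with upper-quartile factors (0.0398) and with the replicate number as a block (0.0491).

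For the TNF receptors, Tnfrsf1b (TNFR2) was at 189 ± 5.76 CPM in DMSO and 186 ± 3.15 CPM in Yoda1 samples (log2 fold change -0.023, SE 0.036). Tnfrsf1a (TNFR1) was at 10.6 ± 1.03 and 11.02 ± 1.19 CPM (log2 fold change 0.072, SE 0.099). Neither passed the test. Ltbr, which encodes the lymphotoxin beta receptor, lay near the detection limit with 11 to 23 reads per sample and a log2 fold change of -0.21 (SE 0.311), which was 0.026 without DMSO sample 4 and below 0 in the other 7 fits without 1 sample. Fas was at 52.2 ± 3.50 and 57.9 ± 2.86 CPM, with separate groups and an edgeR adjusted p of 0.0633, and passed without DMSO sample 1 (edgeR adjusted p = 0.0296), without Yoda1 sample 2 (edgeR adjusted p = 0.0434) or with no filter on low counts (edgeR adjusted p = 0.0411). Tnfrsf14 (HVEM, the receptor of LIGHT) was at 19.1 ± 0.885 and 16.97 ± 1.38 CPM (edgeR adjusted p = 0.173). The TRAIL receptor Tnfrsf10b and the related genes Tnfrsf22 and Tnfrsf23 had log2 fold changes of 0.099, -0.17 and 0.30, and none of these passed.

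Downstream of the receptors, 8 of 30 genes of TNF receptor signalling and ligand shedding passed (26.7%), all higher with Yoda1. Of all tested genes 10.9% passed (6.04% higher). Tnfaip3, which encodes the NF-κB inhibitor A20, rose from 250 ± 14.4 to 330 ± 10.4 CPM (log2 fold change 0.40, SE 0.039, edgeR adjusted p = 1.43e-08). The adaptor genes Traf1 (log2 fold change 0.17, SE 0.037, edgeR adjusted p = 0.00222) and Traf5 (0.68, SE 0.173, edgeR adjusted p = 0.00939) also rose, Traf5 from a low level of 2.53 ± 0.475 CPM. Adam10, a membrane protease gene, rose by 0.15 (SE 0.038, edgeR adjusted p = 0.00886). The remaining 4 calls were small and less stable. Rhbdf2, which encodes iRhom2, a partner of ADAM17, had a log2 fold change of 0.16, and Ripk1, Birc3 and Cflar, which encode regulators of survival or death after receptor binding, were each at 0.13. Of 16 alternatives, Ripk1 lost its call in 9, Cflar in 7, and Birc3 and Rhbdf2 in 4 each. Without 1 sample, Ripk1 lost it in 5 fits (DMSO sample 3 or 4, or Yoda1 sample 1, 2 or 4 left out), Cflar in 4 (DMSO sample 1, or Yoda1 sample 1, 2 or 4 left out), Rhbdf2 in 3 (DMSO sample 2, DMSO sample 4 or Yoda1 sample 4 left out) and Birc3 in 1 (Yoda1 sample 2 left out). The calls in the list numbered 5 both without Yoda1 sample 2 and without Yoda1 sample 4, and with total or upper-quartile scaling they split into 5 higher and 2 lower or 4 higher and 2 lower. Adam17, the enzyme that releases TNF, was at 96.5 ± 2.75 and 100.7 ± 2.94 CPM and did not pass (edgeR adjusted p = 0.333).

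Across all tested genes, the 3 with the pattern most like that of Lta over the 8 samples were Srsf3, Nupr1 and Map6. Pearson's r of log2 CPM was 0.994 for Srsf3, which encodes a splicing factor, 0.993 for Nupr1, which encodes a stress-response regulator, and 0.989 for Map6, which encodes a microtubule-binding protein. Their log2 fold changes were -0.24, -0.55 and -0.32. The 8 points fall into the DMSO and the Yoda1 group, so r mostly describes the distance between the groups and is given as a description.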

How the data were processed

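The authors deposited raw whole-number read counts per gene symbol for each of the 8 libraries. The submitters' processing notes name TopHat and mm10, and the study's methods list FASTX Trimmer, FastQC, Cufflinks and BBMap. The libraries were directional, but the counter, tool versions, annotation and strand setting are not given in the sources used here. Library totals ranged from 12438009 to 19534653 counts. Each library counted as 1 sample. All pairs of replicates differed by more than counting noise (chi-square per gene 2.03 to 6.94), which does not show that they were separate mice or cultures.

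Low genes were removed by filterByExpr (at least 10 counts, 15 in total), and libraries were scaled by TMM (factors 0.988 to 1.01) and tested in R 4.3.3 with edgeR 4.0.16 (robust quasi-likelihood, Benjamini-Hochberg, 0.05). The SE is the absolute log2 fold change divided by the root of F. Values taken alone were compared by a two-sided exact permutation test. The fits were tested on simulated data.

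Members and lists were chosen with earlier results of these data known. All 8 ligands, every listed ligand and receptor, each listed signalling or neighbouring gene past the threshold, and the 3 genes most like the ligand with the smallest p were to be named. Neighbouring genes, Adam17 and the single markers of other cell types were named after their values were seen. Positions came from GENCODE M21 (GRCm38, the assembly of mm10) and promoters from RefSeq (GRCm38.p6). Alternatives were DESeq2 1.42.0, limma-voom (limma 3.58.1), other scalings and filters, a replicate block and each library left out.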

Additional observations from a re-analysis of the deposited data

Results flagged for a closer look

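Among the ligands, their receptors, signalling genes and neighbours, 126 groups of 4 samples were examined for a sample standing apart from the other 3 by Dixon's criterion. Chance flags about 1 in 20 groups, or 6.3 here, and 6 were found. Fasl stood at 11.5 CPM in DMSO sample 4, with the next DMSO sample at 8.16. Tnfrsf22, the gene of a TRAIL receptor, stood at 2.07 CPM in the same sample, with the next at 2.94. Traf3 stood at 164.6 CPM in DMSO sample 1, with the next at 176. Among the Yoda1 samples, Tnfrsf8 stood at 144.6 CPM in sample 4, with the next at 148, and in sample 2 Birc3 stood at 185 CPM and Ikbkg at 65.9 CPM, with the next at 180 and 64.1.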

How the results depend on the processing

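The calls of Lta, Tnf, Tnfsf11 and Fasl held in all 16 alternatives, with log2 fold changes of -0.84 to -0.77, 0.13 to 0.18, 0.34 to 0.38 and 0.51 to 0.71. Calls among the 8 ligands numbered 4 or 5, and those over all genes 893 to 1491. Over all genes the split of 739 higher and 592 lower became 553 and 809 with library totals alone and 505 and 958 with upper-quartile factors. Ltb passed at -0.13 with library totals and at -0.14 with upper-quartile factors, and ranged from -0.14 to -0.070 when samples were left out in turn, passing without DMSO sample 4 or Yoda1 sample 3. Tnfsf14 ranged from 0.096 to 0.16, passing without DMSO sample 1. The median of the 8 ligands was 0.077 with upper-quartile factors, when that of all genes was -0.036. Calls among receptors numbered 1 in DESeq2, 4 with no filter and 1 to 4 with samples left out. Calls among the other ligands numbered 1 to 2, and among signalling genes 5 to 9, with samples left out. The cause of these shifts was not tested.

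No pairing by the shared replicate numbers was seen in the counts. Deviations of same-numbered samples correlated at 0.048, 0.071, -0.028 and 0.00023, and only DMSO sample 2 correlated best with its own number. Correlations this near 0 cannot settle how the cultures were set up. With the replicate block 966 genes, 4 of the 8 ligands, 3 receptors (Tnfrsf11a added) and 5 signalling genes were called (Ripk1, Birc3 and Cflar lost). Depth limits the statements on Ltbr, Fasl and the 3 ligands with 0 to 5 reads. It also limits those on other genes with fewer reads than Fasl. Among these were Tnfsf15 (11 to 37 reads per sample), Cd40lg (17 to 31), Tnfrsf22 (28 to 57) and Tnfsf12 (35 to 54). Tnfrsf23 (31 to 69) and the called Traf5 (32 to 69) were also among them. Intervals on such counts would cover counting error only.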
